A study of Mus musculus with 10 samples.

Results

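Endothelins are short vasoactive peptides cut from larger precursors, and the results below concern the 6 genes of the deposited table that encode the 3 mouse endothelins (Edn1, Edn2, Edn3), their receptors (Ednra, Ednrb) and the endothelin-converting enzyme Ece1. The members were chosen by gene symbol from 18994 listed genes, and with earlier results of these data known: Edn3 was among the 10 genes with the smallest p for MMP9 against vehicle. The MMP9-against-vehicle values of the members are therefore a description and carry no support of their own. All 6 members passed the filter on low counts.

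The tissue was cheek skin of healthy C57BL/6 mice aged 6 to 8 weeks. In every mouse the cheek had been shaved 3 days earlier. One group of 5 mice received 1 µg of MMP9 (matrix metalloproteinase 9, an enzyme that cuts gelatin and other matrix proteins) into the skin of the right cheek in 5 µL, and the other 5 mice received the same volume of vehicle. The skin was taken 4 hours later and its polyadenylated RNA was sequenced, with 1 library per numbered mouse. All animals are of the same strain, no genetic alteration is given in the labels, and a single dose and a single time were sampled. The sex of the mice and the content of the vehicle are not stated in the labels.

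Endothelin precursors are cleaved first by furin-type proteases to inactive big endothelins and then by converting enzyme to peptides held in shape by a pair of disulphide bridges. The receptor encoded by Ednra binds endothelins 1 and 2 far better than endothelin 3 and contracts vascular smooth muscle, whereas the receptor encoded by Ednrb binds all of them. In skin, endothelin 1 is made by endothelium and keratinocytes, is pruritogenic on injection, and acts on sensory neurons through Ednra; endothelin 3 and Ednrb are required for melanoblasts and enteric neurons to develop, and loss of either gives white-spotted mice.

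The stretches of coding sequence for the mature peptides are shown because they are what makes the ligands a family, and because reads of 50 bases could be split between near-identical copies. A search of the GENCODE M21 transcripts for the spacing of the 4 cysteines of an endothelin found 1 match of 63 bases in each ligand gene, each in exon 2 of 5. The matches lie on the plus strand of GRCm38 at chr13:42303649-42303711 for Edn1, chr4:120161951-120162013 for Edn2 and chr2:174761749-174761811 for Edn3. The deposited counts were made on another build, GRCm39, so these positions are not those of the authors' alignment. The sequences run 5′ to 3′ and the capitals mark the codons of the 4 cysteines.
Edn1: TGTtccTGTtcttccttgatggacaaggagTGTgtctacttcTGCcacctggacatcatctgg
Edn2: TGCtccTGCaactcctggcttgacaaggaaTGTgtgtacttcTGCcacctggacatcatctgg
Edn3: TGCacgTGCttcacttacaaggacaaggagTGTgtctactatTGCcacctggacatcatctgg
Edn1 and Edn2 share 53 of the 63 bases, Edn1 and Edn3 share 50, and Edn2 and Edn3 share 48. The last 21 bases, which include the final cysteine codon and encode the tail that the receptors need, are the same in all 3 genes. Of the 18 positions at which the genes are not all alike, 11 lie in the stretch of 21 bases before the last pair of cysteine codons. Across the whole transcripts used, the longest run of bases shared exactly was 29 between Edn1 and Edn2, 21 between Edn3 and either other ligand, and 15 between Ednra and Ednrb. No run reached the read length of 50, so an exact full-length read from one of these transcripts does not occur in its paralog.

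Libraries held between 17121595 and 19443136 estimated counts. Basal keratinocyte genes summed to 6679 to 11233 CPM per library (counts scaled by library size and a scaling factor for composition). Skeletal muscle genes summed to 13821 to 27656 CPM, so muscle transcripts were present beside those of skin. MMP9 replicate 4 stood apart: its scaling factor was 0.843 against 0.993 to 1.05 in the other libraries. In it, 85 ribosomal protein genes held 26.1% of TPM against 16.8% to 18.4% in the others. TPM are counts divided by transcript length and scaled to the library total, without that factor. Genes of the hair list (shaft, matrix and inner root sheath) were low in vehicle replicate 2 and MMP9 replicate 1. Their scores there were -6.58 and -5.95 on the log2 scale against -0.76 to 3.03 in the others. Whether the counting used strand is not stated, so reads of a member and of any antisense gene cannot be told apart. In bulk tissue, fewer cells of a type and less RNA per cell cannot be told apart.

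Per transcript length, Ece1 was by far the most abundant member and Edn2 the least (plot of TPM by gene). Ece1 stood at 83.9 ± 19.6 TPM over the 10 libraries (SD, n = 10). Ednra followed at 12.6 ± 2.73 TPM, Ednrb at 10.8 ± 4.16 TPM and Edn1 at 9.17 ± 2.24 TPM. Edn3 had 1.85 ± 0.556 TPM and Edn2 0.861 ± 0.389 TPM. Neighbours in this order were compared within each library, by an exact two-sided sign-flip permutation test of the log2 TPM ratio with Benjamini-Hochberg adjustment over the 5 pairs. Ece1 exceeded Ednra in 10 of 10 libraries, by 6.62-fold on average, with an exact permutation p of 0.00195 (adjusted p = 0.00488), the smallest that 10 libraries allow. Edn1 exceeded Edn3 in 10 of 10 libraries, by 4.99-fold, with the same exact p (adjusted p = 0.00488). Edn3 exceeded Edn2 in 9 of 10 libraries, by 2.22-fold (exact permutation p = 0.00391, adjusted p = 0.00651). The library in which Edn2 was the higher was vehicle replicate 3. The pairs were set from these same TPM values, so each p describes how steady a ratio was over libraries. An error in gene length or read assignment that is the same in every library does not enter it. Ednra, Ednrb and Edn1 could not be ordered beyond their spread: the mean log2 ratio was 0.29 ± 0.65 for Ednra over Ednrb and 0.17 ± 0.56 for Ednrb over Edn1 (SD, n = 10), with adjusted exact permutation p of 0.283 and 0.367.

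**Figure D1:**
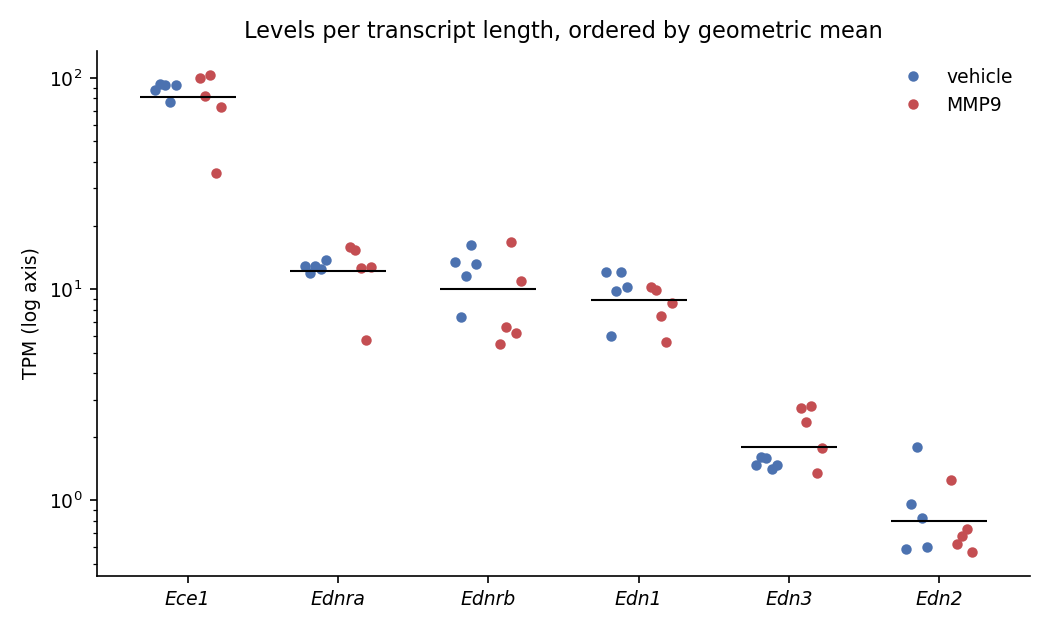
TPM of each member (log axis) in the 5 vehicle and 5 MMP9 libraries, 1 point per library, with the geometric mean as a line. Ece1 lies above all other members in every library, while Ednra, Ednrb and Edn1 overlap between 5.50 and 16.7 TPM.

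Among the ligands, Edn3 was the member whose MMP9 libraries lay above the vehicle libraries, although the difference did not pass the test across all genes. Edn3 encodes endothelin 3. Its estimated counts were 49, 54, 54, 48 and 53 in vehicle replicates 1 to 5 and 90, 82, 98, 54 and 60 in MMP9 replicates 1 to 5. Scaled by library size and composition (trimmed mean of M-values, TMM), the vehicle libraries had 2.78, 2.95, 2.96, 2.64 and 2.66 CPM and the MMP9 libraries 4.66, 4.14, 4.90, 3.74 and 3.28 CPM. On this scale the groups did not overlap. The coefficient of variation was 5.50% in vehicle and 15.9% in MMP9. With a mean of 51.6 estimated counts in vehicle, counting alone would give a spread wider than 5.50%. Nothing is therefore read from the closeness of the vehicle libraries. Of 15250 tested genes, 65 (0.426%) had no overlap with MMP9 higher and 21 (0.138%) had none with MMP9 lower, and since Edn3 was chosen with this contrast known nothing is read from its place among them. The fitted fold was 1.48 (log2 fold change 0.57, standard error 0.15, 95% interval 0.24 to 0.89). With edgeR's quasi-likelihood test and Benjamini-Hochberg adjustment, 0 of the 15250 genes passed (0%), 487 had an unadjusted p under 0.05, and Edn3 had an adjusted p of 0.981. limma-voom called 0 genes, with 462 under that unadjusted p. DESeq2 called 1 of 18945 genes (0.00528%), with 620 under it, and gave Edn3 an adjusted p of 0.982. Of the members, Edn3 alone had a positive log2 fold change, against 53.7% of all tested genes, and the other 5 had negative ones, against 46.3%. By p, Edn3 ranked 10th of the tested genes, just behind the extracellular matrix gene Olfml3 (log2 fold change 0.35) and just ahead of Bhlhe22 (0.88), a transcription factor gene outside that limit.

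The position of MMP9 replicate 4 depended on the scale. In TPM, Edn3 stood at 1.47, 1.60, 1.59, 1.40 and 1.47 in vehicle and at 2.72, 2.35, 2.79, 1.34 and 1.76 in MMP9, so that replicate 4, with 54 counts, was under every vehicle library. In TPM the groups were apart for 0.138% of tested genes with MMP9 higher and 0.0656% with MMP9 lower, and for 0 members. The other 4 MMP9 libraries remained above all vehicle libraries. Recomputed without ribosomal protein genes, a scale added after the data were seen, TPM ran from 1.70 to 1.95 in vehicle and from 1.81 to 3.35 in MMP9, with the groups still overlapping and 4 MMP9 libraries above. By library size alone, without TMM factors, the groups did not overlap, at 2.62 to 3.02 and 3.15 to 5.07 CPM. Without MMP9 replicate 4 the log2 fold change was 0.60.

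**Figure D2:**
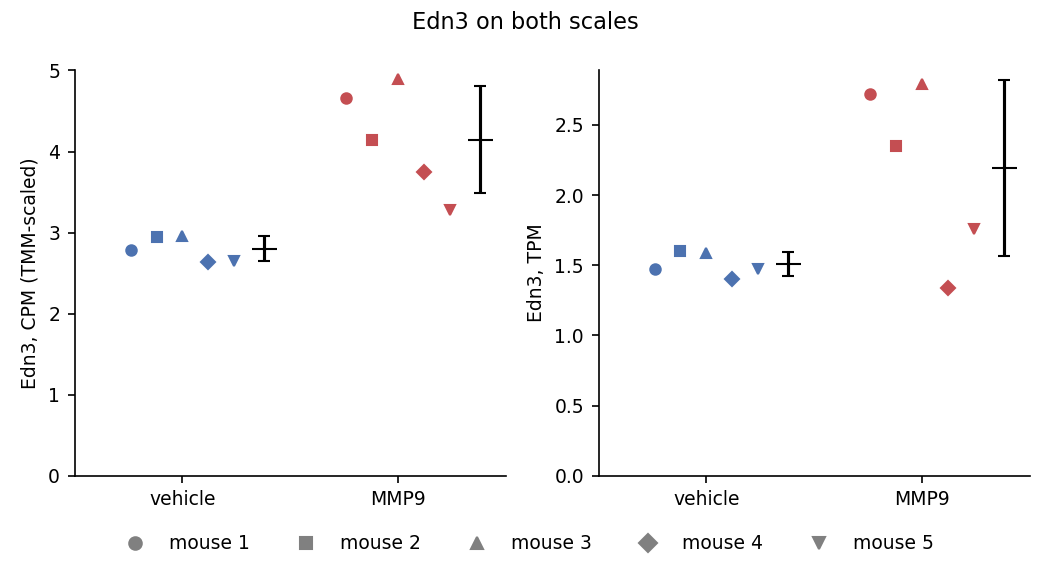
Edn3 in CPM (left, TMM-scaled) and in TPM (right) by library, with symbols for mouse numbers within a group and mean ± SD beside the points. MMP9 replicate 4 lies above the vehicle libraries at 3.74 CPM and below them at 1.34 TPM.

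Edn1, which encodes endothelin 1, had overlapping groups. Its values were 15.4, 7.54, 12.4, 15.5 and 12.6 CPM with vehicle and 11.9, 11.9, 8.89, 10.7 and 10.9 CPM after MMP9. In CPM vehicle replicate 2 was the lowest library. The other vehicle libraries lay above every MMP9 library, an order whose share over all tested genes was not counted. In TPM this order was lost: MMP9 replicate 4 was the lowest at 5.60, and vehicle replicate 3 at 9.78 lay below MMP9 replicates 1 and 2 at 10.19 and 9.93. The log2 fold change was -0.22 ± 0.18 (SE, 95% interval -0.63 to 0.18, edgeR adjusted p = 0.981). Without vehicle replicate 2 it was -0.36, with an edgeR adjusted p of 0.999. That library also had the low hair score and an endothelial score of -0.27, and the part of either in the Edn1 value was not tested.

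Edn2, which encodes endothelin 2, was the member with the fewest counts. Its estimated counts were 9, 15, 28, 13 and 10 in vehicle and 19, 10, 11, 13.5 and 9 in MMP9. No more than 28 counts were thus behind any value, and the coefficient of variation over the 10 libraries was 44.2% in CPM. The log2 fold change was -0.23 ± 0.37 (SE, 95% interval -1.04 to 0.58, edgeR adjusted p = 0.981), and it became 0.13 without vehicle replicate 3, the library with 28 counts.

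As shares of the summed ligand TPM within a library, which do not depend on library scaling, Edn1 made up most of the ligand transcripts. Its share averaged 79.5% ± 6.85 with vehicle and 73.8% ± 4.16 after MMP9 (SD, n = 5). Edn3 held 10.4%, 18.7%, 12.1%, 9.85% and 11.97% in vehicle replicates 1 to 5 and 19.2%, 18.2%, 25.6%, 17.5% and 16.1% in MMP9 replicates 1 to 5. The groups overlapped: vehicle replicate 2, where Edn1 was low, lay above MMP9 replicates 2, 4 and 5. The ratio of Edn1 to Edn3 TPM was 3.74 to 8.57 in vehicle and 2.67 to 4.88 in MMP9. These shares restate the Edn3 and Edn1 values in another form and are not independent of them.

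**Figure D3:**
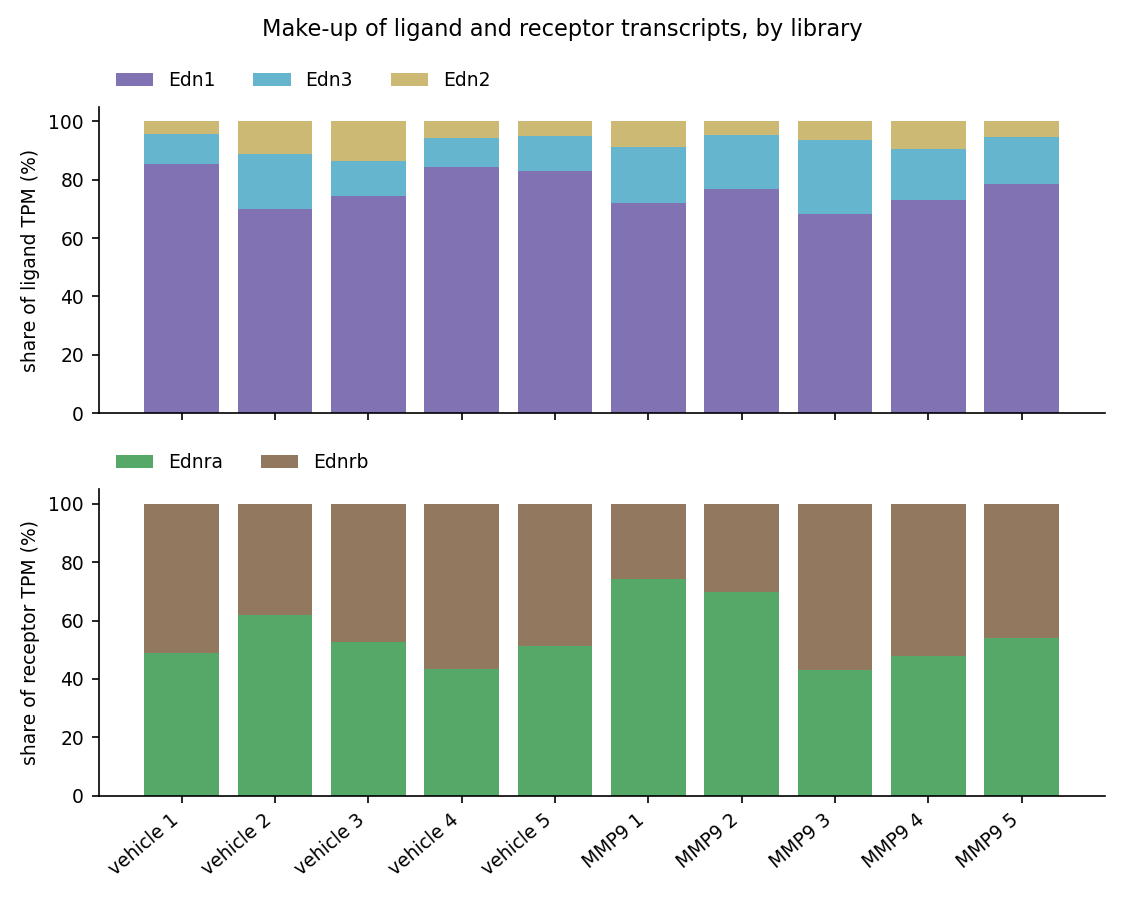
Share of ligand TPM held by Edn1, Edn3 and Edn2 (top) and share of receptor TPM held by Ednra and Ednrb (bottom), in percent, for each of the 10 libraries. Edn3 holds 16.1% to 25.6% of ligand TPM in MMP9 and 9.85% to 18.7% in vehicle, and Ednra holds 42.9% to 74.1% of receptor TPM over all libraries.

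Of the receptors, Ednra was even across vehicle mice and Ednrb varied in both groups. Ednra had 28.4, 25.8, 28.1, 27.6 and 29.2 CPM with vehicle and 31.7, 31.7, 25.7, 18.8 and 27.9 CPM after MMP9. The vehicle libraries spread by 4.58% of their mean, and the MMP9 libraries lay on both sides of them, with replicate 4 the lowest. The log2 fold change was -0.03 ± 0.13 (SE, 95% interval -0.32 to 0.25, edgeR adjusted p = 0.990), and it turned to 0.07 without MMP9 replicate 4. As a fold, that interval ran from 0.802 to 1.19.

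Ednrb had 29.4, 15.7, 25.7, 35.4 and 28.1 CPM with vehicle and 10.9, 14.2, 33.7, 20.2 and 23.1 CPM after MMP9. The lowest libraries were MMP9 replicates 1 and 2 and vehicle replicate 2, and MMP9 replicate 3 was the second highest of all. The log2 fold change was -0.40 ± 0.29 (SE, 95% interval -1.04 to 0.25, edgeR adjusted p = 0.981). It ran from -0.24 without MMP9 replicate 1 to -0.66 without MMP9 replicate 3, and in both cases did not pass (edgeR adjusted p of 0.888 and 0.910). Vehicle replicate 2 and MMP9 replicate 1, left out together because of their low hair transcripts, gave -0.38. Ednra accounted for 51.6% ± 6.72 of receptor TPM with vehicle and 57.8% ± 13.7 after MMP9 (SD, n = 5). The share ran from 42.9% in MMP9 replicate 3 to 74.1% in MMP9 replicate 1, and a low Ednrb raises it by construction.

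Ece1, the membrane metallopeptidase that cuts big endothelins at the cell surface and in endosomes, was high in every library. It had 251, 260.3, 259.9, 219 and 253 CPM with vehicle and 259.6, 218, 274, 149 and 205 CPM after MMP9. MMP9 replicate 4 had the lowest value, replicates 2 and 5 were also under all vehicle libraries, and replicate 3 was above them. The log2 fold change was -0.17 ± 0.15 (SE, 95% interval -0.50 to 0.16, edgeR adjusted p = 0.981). Without MMP9 replicate 4 it was -0.06. The same library was lowest for Ednra, for the furin gene and for the endothelial score (-0.33 on the log2 scale), and it is the library with the high ribosomal protein share; the part of that share in these values was not tested.

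**Figure D4:**
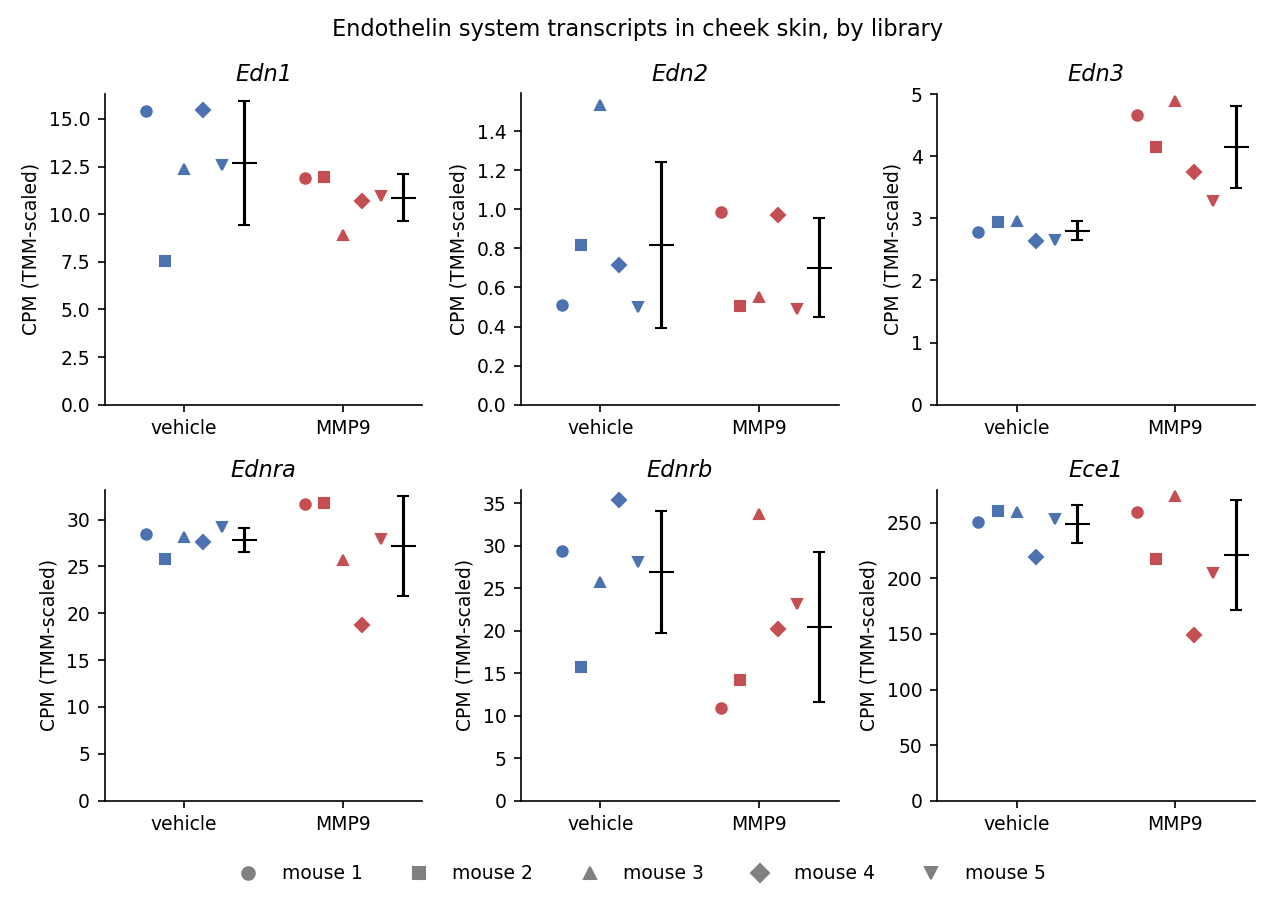
CPM (TMM-scaled) of the 6 members in each library, with symbols for mouse numbers within a group and mean ± SD beside the points. Edn3, chosen with this contrast known, is the member whose groups do not overlap. MMP9 replicate 4 is the lowest library for Ednra (18.8 CPM) and Ece1 (149 CPM).

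**Figure D5:**
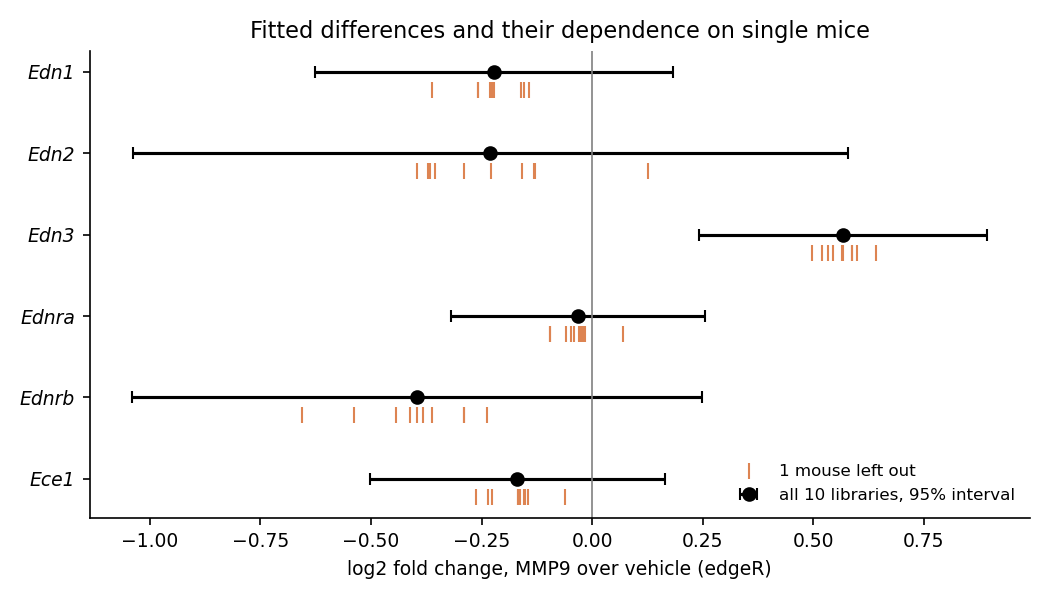
Log2 fold change of each member, MMP9 over vehicle, from edgeR with its 95% interval (black) and with each mouse left out in turn (orange). The interval of Edn3 runs from 0.24 to 0.89, those of the other members include 0, and single mice turn the sign of Edn2 and Ednra. The intervals are not adjusted. Edn3 was already known to be among the 10 genes with the smallest p, so an interval without 0 follows from that and carries no support.

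Genes that make or destroy endothelins were not called either. Of 10 listed genes 7 were tested and 0 passed (background 0%). Of these, 4 had positive and 3 negative log2 fold changes, where 53.7% of all tested genes were positive and 46.3% negative. Their median was 0.41 against 0.01 over all tested genes. Furin, a proprotein convertase, stood at 106 ± 14.4 CPM with vehicle and 93.1 ± 14.7 with MMP9 (SD, n = 5), and Ctsa, a lysosomal carboxypeptidase, at 237 ± 39.0 and 226 ± 15.3 CPM. Mme, which encodes the endothelin-degrading peptidase neprilysin, had 19.1 ± 4.66 CPM with vehicle and 25.4 ± 3.35 with MMP9, which is 0.41 ± 0.17 (SE) as a log2 fold change (edgeR adjusted p = 0.981). The mast cell proteases that degrade endothelin 1 spread widely among vehicle mice. Cpa3 had 60.4 ± 31.1 and 87.3 ± 27.9 CPM, Mcpt4 had 99.4 ± 51.6 and 140.4 ± 28.0 CPM, and Cma1 had 57.4 ± 33.9 and 78.8 ± 19.8 CPM. Mast cell genes as a whole were positive in 7 of 9 tested members, with a median log2 fold change of 0.46 and -0.09 for Kit, the stem cell factor receptor. Their summed level ran from 106 to 456 CPM in vehicle and from 276 to 497 CPM in MMP9; their part in the protease values was not tested. Ecel1, Mmel1 and Kel, with 29, 54.95 and 65.99 counts in total, were left out by the filter. Ece2, another converting enzyme gene, had 33 to 54 estimated counts in each vehicle library and 7.56, 61, 0, 0 and 34.7 in MMP9 replicates 1 to 5. Its log2 fold change of -1.08 ± 0.82 (SE, edgeR adjusted p = 0.981) is 1 of the 3 negative values counted above. Its counts are uncertain because the table also lists a read-through gene, Eef1akmt4-ece2, over the same locus. Summed with that gene, Ece2 had 2.32 ± 0.366 CPM with vehicle and 2.80 ± 0.640 CPM with MMP9 (SD, n = 5).

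Genes through which endothelin receptors signal had mostly small negative values. Of 19 genes for G proteins, phospholipase C, inositol trisphosphate receptors, receptor kinases, arrestins and RGS proteins, 19 were tested and 0 passed (background 0%). Of these, 4 were positive and 15 negative, where 53.7% of all tested genes were positive and 46.3% negative. Genes of a list can vary together, so such counts of signs are a description. The median log2 fold change of the 19 genes was -0.06. Their score was lowest in MMP9 replicate 4, at -0.20 on the log2 scale, and the part of that library was not tested. Gnaq, Gna11 and Gna12, which encode G protein alpha subunits, had log2 fold changes of -0.0042 ± 0.099, -0.10 ± 0.085 and -0.06 ± 0.11 (SE). Of 11 genes for transcription factors that act on Edn1, 0 passed, 1 was positive and 10 were negative, with a median of -0.14. The AP-1 genes Jun and Fos had 108 ± 12.7 and 99.96 ± 15.4 CPM, and 42.4 ± 17.5 and 32.01 ± 16.6 CPM, in vehicle and MMP9 respectively, and Junb had 218 ± 70.6 and 209.5 ± 57.3 CPM. The score of these regulators was lowest in MMP9 replicate 4, at -0.41 on the log2 scale.

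The cell types that make or bind endothelins were described by lists of marker genes, and 0 members of any list passed (background 0%). Over all tested genes, 53.7% had positive and 46.3% negative log2 fold changes. Because genes of a list can vary together, the counts of signs below are a description. Endothelial genes were positive in 3 and negative in 14 of 17 tested members, with a median log2 fold change of -0.12 and summed levels of 809 to 1058 CPM with vehicle and 715 to 1038 CPM after MMP9. Pecam1, Cdh5 and Tek, which encode endothelial surface proteins, had log2 fold changes of -0.12, -0.16 and -0.12. Smooth muscle and pericyte genes were even, positive in 7 of 14, with a median of -0.01; Myh11, Acta2 and Tagln, genes of the contractile apparatus, had 0.15, 0.07 and 0.27. Melanocyte genes, marking cells that carry Ednrb, were negative in 8 of 8 tested members, with a median of -0.40. They summed to 94.4 to 159 CPM with vehicle and 83.8 to 104 CPM after MMP9. The 159 CPM came from vehicle replicate 3 alone, and the other vehicle libraries had 94.4 to 108 CPM. The melanocyte regulators Sox10, Mitf and Pax3 had log2 fold changes of -0.27, -0.03 and -0.11. Schwann cell genes were negative in 9 of 10, with a median of -0.15, among them the myelin gene Mbp at -0.15. No gene of these lists was at 0 in all libraries, and the part of melanocytes or Schwann cells in the Ednrb values, and of endothelium in the Edn1 values, was not tested in the contrast.

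Fibroblast genes were positive in 14 of 14 tested members, against 53.7% of all tested genes, with a median of 0.16. Their score was -0.41 and -0.60 in vehicle replicates 2 and 3. It was 0.21 to 0.40 in the other vehicle libraries and 0.06 to 0.47 in MMP9. Summed levels were 6725 to 12670 CPM with vehicle and 8025 to 15903 CPM after MMP9. The collagen genes Col1a1, Col1a2 and Col3a1 had log2 fold changes of 0.13, 0.17 and 0.24. Dermal papilla genes, listed because the papilla is a source of hair follicle signals, were positive in 8 of 10 tested members, with a median of 0.15 and summed levels of 198 to 266 CPM with vehicle and 235 to 305 CPM after MMP9. Rspo3, a Wnt potentiator, had 3.33 ± 0.841 CPM with vehicle and 5.38 ± 0.808 with MMP9, which is 0.69 ± 0.19 (SE) as a log2 fold change (edgeR adjusted p = 0.981), and Sostdc1 had 0.17. Corin, a papilla protease gene, had 89.2 counts in all and was not tested. Basal keratinocyte genes were negative in 9 of 10, with a median of -0.13, and Krt5, Krt14 and Krt15 had -0.11, -0.06 and 0.01. Suprabasal genes were positive in 7 of 10, with a median of 0.04, and Krt1, Krt10 and Krtdap had -0.16, 0.10 and 0.36. Genes of the hair list were negative in 10 of 10, with a median of -1.20, and skeletal muscle genes in 7 of 11, with a median of -0.10. In the hair list, the inner root sheath keratin genes Krt71 and Krt25 had -1.30 and -1.22. Krt86 had -1.55, and the standard errors of these keratin genes were above 1. The muscle genes Acta1, Myh4 and Ckm had -0.10, -0.13 and -0.01.

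Whether a member followed a cell type from mouse to mouse was measured on deviations from the group mean, so that the treatment contrast did not enter. The 6 members were compared with 10 cell type scores, 60 correlations in all, each with an exact permutation of libraries within groups and Benjamini-Hochberg adjustment over the 60. The hair list was not compared because its libraries fall into separate clusters. No correlation had an adjusted p under 0.05, and the lowest, at 0.05, was that of Edn1 with the endothelial score. Its Pearson r was 0.80 (exact permutation p = 0.000833) and its Spearman rho 0.84 (exact permutation p = 0.00597, adjusted p = 0.110), over 10 libraries. Without vehicle replicate 2 and MMP9 replicate 3, the libraries farthest from the median score, r was 0.57. On log2(TPM + 1) the r of Edn1 was 0.83, with an adjusted exact permutation p of 0.0225. It was also 0.83 on that scale without MMP9 replicates 1 and 4, the farthest libraries there. For each other member the lists with the smallest p, the largest r and the largest rho, regardless of sign, are given, a choice widened after the values were seen. The pair of Ednrb and the melanocyte score was added to these, also after the values were seen.

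Edn3 had its largest r and rho with the basal keratinocyte score, at r = 0.80 (exact permutation p = 0.00639, adjusted p = 0.0958) and rho = 0.86 (exact permutation p = 0.00639, adjusted p = 0.110). Without MMP9 replicates 1 and 5 its r was 0.63, and on log2(TPM + 1) it was 0.93 (adjusted exact permutation p = 0.0225). Leaving out MMP9 replicates 1 and 4, the farthest libraries on that scale, gave an r of 0.79. With the fibroblast score Edn3 had r = -0.52 (exact permutation p = 0.00368, adjusted p = 0.0958) and rho = -0.65 (exact permutation p = 0.00736, adjusted p = 0.110), and -0.56 without vehicle replicates 3 and 5, but r turned to 0.24 on log2(TPM + 1). Edn2 had r = -0.78 (exact permutation p = 0.00535, adjusted p = 0.0958) and rho = -0.80 (exact permutation p = 0.0226, adjusted p = 0.173) with the fibroblast score. Its r was -0.53 without the same vehicle replicates and -0.64 on log2(TPM + 1).

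Of the receptors, Ednra had its smallest p and largest rho with the endothelial score, at r = 0.69 (exact permutation p = 0.0206, adjusted p = 0.177) and rho = 0.75 (exact permutation p = 0.0336, adjusted p = 0.177). Its r was 0.83 without vehicle replicate 2 and MMP9 replicate 3 and 0.93 on log2(TPM + 1) (adjusted exact permutation p = 0.0225). Leaving out MMP9 replicates 1 and 4, the farthest libraries on that scale, gave an r of 0.69. The largest r of Ednra was with the smooth muscle and pericyte score, at 0.72 (exact permutation p = 0.0368, adjusted p = 0.230), with rho = 0.48 (exact permutation p = 0.177, adjusted p = 0.462) and r = 0.53 without vehicle replicate 5 and MMP9 replicate 4. Ednrb had r = -0.77 (exact permutation p = 0.0155, adjusted p = 0.156) and rho = -0.84 (exact permutation p = 0.00660, adjusted p = 0.110) with the suprabasal keratinocyte score. This relation was weaker without vehicle replicate 2 and MMP9 replicate 1, with r = -0.39. On log2(TPM + 1) its r was -0.47 (adjusted exact permutation p = 0.412). With the Schwann cell score Ednrb had r = -0.71 (exact permutation p = 0.0434, adjusted p = 0.230) and rho = -0.85 (exact permutation p = 0.00965, adjusted p = 0.116). Its r was -0.75 without MMP9 replicates 2 and 5 and -0.19 on log2(TPM + 1). With the melanocyte score Ednrb had r = 0.18 (exact permutation p = 0.578, adjusted p = 0.738) and rho = 0.07 (exact permutation p = 0.850, adjusted p = 0.923). Ece1 had r = -0.69 (exact permutation p = 0.0156, adjusted p = 0.156) and rho = -0.80 (exact permutation p = 0.0120, adjusted p = 0.120) with the skeletal muscle score, -0.68 without vehicle replicate 5 and MMP9 replicate 1 and -0.20 on log2(TPM + 1).

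The genes whose deviations were most like those of each member are listed as a description over the same 10 libraries, which share scaling and depth. For Edn3 they were Gprin2, Myo5b, Pcdh7, Ppme1 and Rufy4, with Pearson r from 0.91 to 0.95. Edn1 was nearest to Zswim9, Sytl2, Sgtb, Sncaip and Tet1, with r from 0.92 to 0.96, and Edn2 to Efna1, Bnc1, Dnph1, 2810408A11Rik and Mif, with r from 0.89 to 0.92. The nearest to Ednrb were Wfikkn2, Chil3, Alg11, Mmp8 and Fads3, with r from 0.91 to 0.94. The nearest to Ednra were Baz2b, Prkdc, Usp11, Bptf and Crybg3, with r from 0.97 to 0.99, and to Ece1 N4bp1, Myo1d, Lima1 and Brd2, with r from 0.97 to 0.98. No gene was among the 5 nearest of more than 1 member. Since the 5 genes were picked for each member by the size of r, values of this size carry no test.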

How the data were processed

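The expression of 10 mouse cheek skin libraries was measured by single-end mRNA sequencing on a DNBSeq instrument, per the labels' protocols. The deposited table holds, per the file headers, estimated read counts (60.8% not whole), FPKM and TPM for each library; FPKM values deposited by the authors were not tested. HISAT and GRCm39 are named in the submitters' processing notes; the quantification program, annotation and strand are not given in the sources read.

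Deposited estimated counts were rounded, and edgeR 4.0.16 (R 4.3.3) served for the test (TMM factors, filterByExpr, quasi-likelihood F test, Benjamini-Hochberg, threshold 0.05). The filter kept 15250 of 18994 genes. CPM are TMM-scaled; standard errors derive from the F statistic. The fit was tested on simulated data. List scores are medians over members of log2 CPM (prior count 2) minus the vehicle mean; 166 of 167 entries in 14 lists matched. Levels between genes used the authors' TPM. Sequences and exons come from GENCODE M21 on GRCm38. No 2 libraries were duplicates (chi-square per gene at least 17.8).

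Members, lists, tests and alternatives were chosen with earlier results of these data known. Named genes are all members, all processing genes, the first 3 of each other list and the 5 nearest by Pearson r among genes of at least 1 CPM; a few genes that this rule names are not reported here. Olfml3, Bhlhe22, Eef1akmt4, Eef1akmt4-ece2 and Pnliprp2 were named after their values were seen. Alternatives were other factors (RLE, upper quartile), no filter, 1 CPM, DESeq2 1.42.0, limma-voom 3.58.1, limma on log2(TPM + 1) and log2(TPM + 0.1), mouse number as a block, and leaving out mice; library size alone and TPM without ribosomal protein genes were added after seeing the data.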

Additional observations from a re-analysis of the deposited data

Results flagged for a closer look

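Among 50 groups of 5 values checked for one far from the rest, of which chance flags about 5%, 4 values stood apart. Edn2 in MMP9 replicate 1 had 1.25 TPM, from 19 estimated counts, where the other MMP9 libraries had 0.57 to 0.73 TPM. Ece1 in vehicle replicate 4 had 219 CPM, below 251 to 260.3 CPM in the other vehicle libraries. Edn3 held 18.7% of ligand TPM in vehicle replicate 2, where the other vehicle libraries had 9.85% to 12.1%. Furin in MMP9 replicate 4 had 68.2 CPM, the library that was also lowest for Ece1 and Ednra.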

How the results depend on the processing

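The number of genes passing was 0 in all settings except DESeq2, which called 1, Pnliprp2; leaving out single mice gave 0 to 0. The log2 fold changes of Edn1 (-0.40 to -0.14), Edn3 (0.33 to 0.64), Ednrb (-0.66 to -0.24) and Ece1 (-0.26 to -0.06) kept their sign in 21 alternatives, and none passed; the lowest of Edn3 was on log2(TPM + 1). Those of Edn2 turned to 0.13 without vehicle replicate 3 (range without single mice -0.40 to 0.13) and of Ednra to 0.069 without MMP9 replicate 4 (-0.10 to 0.069). With at least 1 CPM required, Edn2 was not tested. Mouse numbers share no origin in the labels, same-numbered deviations had r of -0.24 to 0.46, and with the mouse number as a block 0 genes passed and Edn3 had 0.55. In the order of levels, groups of 5 cannot pass the exact test, and the log2 ratios of Ece1 over Ednra, Edn1 over Edn3 and Edn3 over Edn2 were 2.80, 2.69 and 0.79 in vehicle and 2.66, 1.95 and 1.52 in MMP9. On log2(TPM + 1) the r of Edn1 and Ednra with the endothelial score and of Edn3 with the basal keratinocyte score passed, at 0.83, 0.93 and 0.93 (adjusted exact permutation p = 0.0225 for each). Without MMP9 replicates 1 and 4, the libraries farthest from the median score on that scale, these were 0.83, 0.69 and 0.79. MMP9 replicate 4 is the library with the high ribosomal protein share. The r of Edn3 with the fibroblast score turned to 0.24 on log2(TPM + 1), and the cause of these changes was not tested. Ednra with the smooth muscle score had no value there because the scores fell into separate clusters. The r of Ednrb with the suprabasal score was -0.39 without its 2 farthest libraries. At most 28 counts stood behind any Edn2 value.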

Other observations

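At the Ece2 locus the table lists a read-through gene beside Ece2. The read-through gene Eef1akmt4-ece2 was listed at 0 in all 5 vehicle libraries and in MMP9 replicate 2, and at 43.5, 38.1, 39.3 and 32.1 estimated counts in MMP9 replicates 1, 3, 4 and 5, the libraries with 7.56, 0, 0 and 34.7 counts for Ece2. Summed, the Ece2 and read-through entries had 33 to 54 counts in vehicle and 38.1 to 66.8 in MMP9, or 2.32 ± 0.366 and 2.80 ± 0.640 CPM (SD, n = 5). Eef1akmt4 itself had 114 to 135 estimated counts in vehicle and 128 to 180 in MMP9. How the authors' counting assigned reads shared by these genes is not given in the sources used here, and a difference in the read-through transcript itself was not tested.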
